A study of Caenorhabditis elegans with 4 samples.

Results

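The GEI-11 peaks described here are the binding regions that lie in the middle of the autosomes. They were chosen by position alone. A peak was kept when its midpoint lay above 25% and at most 75% of the span of chromosome I, II, III, IV or V, the span being the stretch from the first base to the end of the last peak. This gave 212 of the 515 autosomal peaks and of the 687 peaks in the whole list. The remaining 303 autosomal peaks, here called the outer parts, were used for comparison, with 84 in the left flanks and 219 in the right flanks.

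The list came from chromatin immunoprecipitation with sequencing (ChIP-seq) in L4 larvae, the last larval stage of the nematode Caenorhabditis elegans. All 4 samples were hermaphrodites of strain OP179 grown at 20 °C. The strain has the mutation unc-119(ed3) on chromosome III and the integrated transgene wgIs179, which joins a rescuing copy, unc-119(+), to the fusion gei-11::TY1::EGFP::3xFLAG. The samples were 2 ChIP samples, precipitated with a goat antibody against GFP, and 2 input samples, labelled with the same extractions. Both groups thus carried the same tagged transgene in the same unc-119 background, and no untagged strain was among the samples. The strain is a single line made by bombardment, and the labels state that it follows the expression pattern of the gene. The labels' protocol names embryos at the lysis step, although the stage label of every sample is L4. Whole worms were used, so cell types cannot be told apart.

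GEI-11, the name in the strain and sample labels (the title of the series has GEI-1), is now named SNPC-4 and is a Myb-domain subunit of the small nuclear RNA activating protein complex. This complex sits on a short element upstream of small nuclear RNA genes and helps to start their transcription by RNA polymerase II or III. In worms SNPC-4 is also known from the germ line, where it occupies the clusters of piRNA genes on chromosome IV. Worm autosomes have a centre with little recombination and many widely conserved genes, and arms with more recombination and more repeats. The limits of the centres used here are fixed shares of the span and were not placed at measured recombination boundaries.

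The authors' peak caller gave each peak a q-value, which is a p-value after correction for the number of regions tried, and it is written here also as −log10 q. A higher −log10 q is called stronger, and a peak at a q of 1e-10 or less is called strong. Depth, region width and enrichment all enter a q-value, so it was used only within this list. Because 1 list combines all samples, no value has an error between replicates and no difference below was tested. The intervals given are exact 95% intervals, binomial for shares and medians and Poisson for densities. They cover counting error only and treat peaks as independent, although neighbours often lie close together. No genome sequence or annotation of the build of the list (WS180) was used, so peaks are given by position and not by gene.

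The lowest q of the entire list, 1.59e-240, belonged to a central peak of 1241 bp on chromosome II, 5543285 to 5544525. The lowest q in the outer parts, 1.71e-240, was almost equal to it. Of the 10 peaks with the lowest q in the list 3 were central, and of the 20 with the lowest q 9 were, where members made up 30.9% of the list. All 5 centres had at least 1 of the 20. The strongest peak in the centre of V, at 8500284 to 8500873, was 590 bp wide with a q of 2.1e-149. The strongest in the centre of IV, at 9510719 to 9512087, was 1369 bp wide with a q of 1.35e-146. On IV the second, at 9444288 to 9445106, had a q of 4.84e-135.

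Of the other leading central peaks, those on III lay at 5080606 to 5081401 (q = 1.17e-132), 7278322 to 7278973 (q = 1.83e-126) and 4413903 to 4414548 (q = 1.48e-89). On I they lay at 4171891 to 4172652 (q = 4.85e-131), 10516761 to 10517726 (q = 8.77e-105) and 10564305 to 10565539 (q = 3.24e-75). The next strongest on II, at 5844526 to 5845183 and 7199880 to 7200454, had q-values of 6.9e-135 and 8.93e-122. On IV, the one after those above, at 8428320 to 8429058, had a q of 3.92e-116. The next strongest on V, at 11979470 to 11980420 and 8228694 to 8229229, had q-values of 3.84e-116 and 3.36e-107. Each of these 15 leading peaks was at least 536 bp wide, above the median of all central peaks.

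Most central peaks were far weaker than these. The median q was 4.01e-05, a median −log10 q of 4.40 (95% interval 3.68 to 5.08), and the upper quartile was 20.7. In the outer parts the median −log10 q was 3.38 (3.04 to 3.61) and the upper quartile 6.31. There were 67 strong peaks in the centres, 31.6% of the members (95% interval 25.4 to 38.3%), against 18.3% of the whole list. In the outer parts 48 of 303 were strong, 15.8% (11.9 to 20.4%). The left flanks had 10 of 84 (11.9%, 5.86 to 20.8%) and the right flanks 38 of 219 (17.4%, 12.6 to 23.0%). These are shares of the listed peaks, and no density of strong peaks was computed. The 67 central ones lay in 4.11e+07 bp, and each set of flanks measured 2.06e+07 bp. At a q of 1e-20 or less there were 54 central peaks (25.5%), against 13.1% of the whole list and 10.9% of the outer parts.

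The higher share of strong peaks was seen on every autosome, and the intervals of centre and outer parts overlapped on I, II, III and V but not on IV. On IV, 14 of 49 central peaks were strong (28.6%, 95% interval 16.6 to 43.3%), against 8.57% of the 105 outer ones (3.99 to 15.6%). On V, 21 of 70 were strong (30.0%, 19.6 to 42.1%), against 11.5% of 52 (4.35 to 23.4%). The shares were 37.1% of 35 and 20.0% of 75 on II, and 26.8% of 41 and 17.8% of 45 on III. On I, which had the fewest members, they were 47.1% of 17 and 38.5% of 26.

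**Figure D1:**
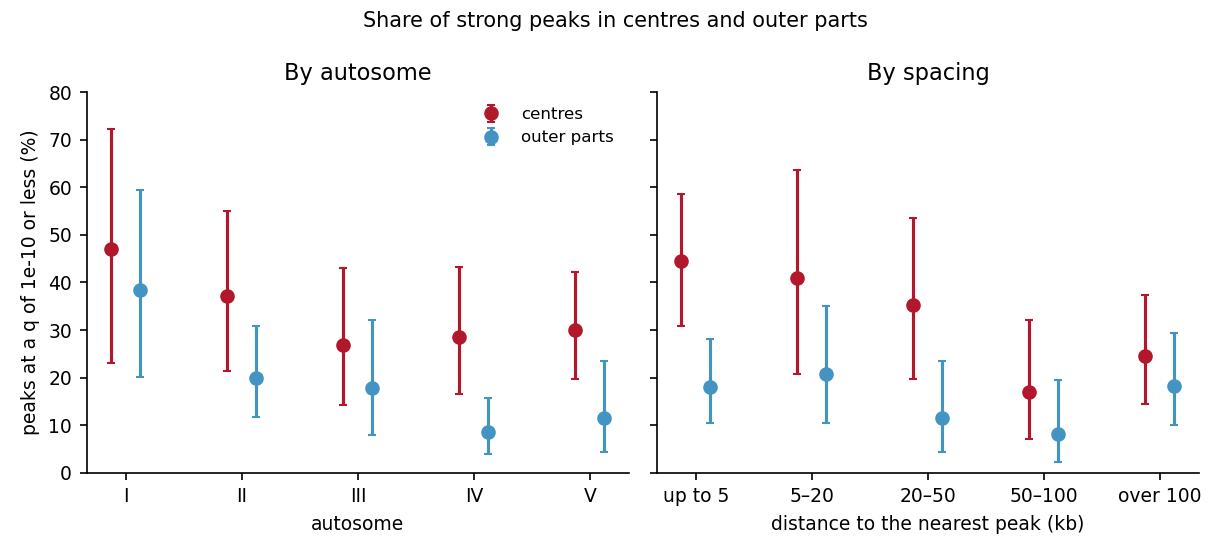
Strong peaks, those with a q-value not above 1e-10, as a share of all peaks (vertical axis, percent) in the centres (red) and the outer parts (blue), by autosome on the left and by distance to the nearest peak on the right; points are shares and bars exact binomial 95% intervals. The red point is the higher one in every pair, and the widest gap by spacing is among peaks within 5 kb of another, 44.4% against 18.1%.

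Central peaks were thinly spread and unevenly shared among the autosomes. Their density was 5.15 per Mb (95% interval 4.48 to 5.90), against 4.08 per Mb in the left flanks (3.26 to 5.06) and 10.6 per Mb in the right flanks (9.29 to 12.2). They covered 91854 bp, 0.223% of the central span. By autosome the density was 2.26 per Mb in the centre of I (1.31 to 3.61), 4.59 on II, 5.95 on III, 5.67 on IV and 6.71 on V (5.23 to 8.47). The interval of I overlapped that of II (3.20 to 6.38) but not those of III, IV and V, and the intervals of II, III, IV and V overlapped.

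Members were also uneven along each centre. When each centre was cut into 10 equal pieces of 0.689 to 1.04 Mb, a piece held 0 to 15 peaks. Pieces with no peak occurred on I (2 pieces) and IV (1 piece). The fullest piece of V, the ninth, held 15 of its 70 members, and the last piece of I held 6 of its 17. On IV, the first and second pieces held 9 each and the eighth and ninth held 1 and none.

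The longest stretch without a peak exceeded 1 Mb in the centres of I, IV and V. On I none lay between 9058266 and 10516761, a gap of 1458494 bp, or 19.4% of that centre by midpoints. On IV the gap ran from 10822226 to 12131369 (1309142 bp, 15.2% of the centre). Those of V (1069684 bp, starting at 5588180), II (775103 bp, starting at 9788071) and III (678074 bp, starting at 6210466) were about 10% of their centres, 10.2%, 10.2% and 9.85%. The median distance between successive central midpoints ran from 70.7 kb on V to 130.3 kb on II.

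Spacing covered a broad range, with both solitary and grouped sites. The median distance from a central midpoint to the nearest peak was 43.9 kb (95% interval 26.7 to 60.8 kb), with quartiles of 4.87 and 111.2 kb and a range from 803 bp to 1308 kb. Neighbours outside the centre counted. The medians of the flanks lay on either side of it, at 68.2 kb on the left (49.3 to 123.9 kb) and 19.6 kb on the right (13.5 to 25.2 kb). On X the median was 15.6 kb. Within the centres the median was 25.7 kb on V, 27.0 kb on IV, 60.8 kb on III, 69.8 kb on II and 91.5 kb on I, and each of these neighbours in order had overlapping intervals.

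**Figure D2:**
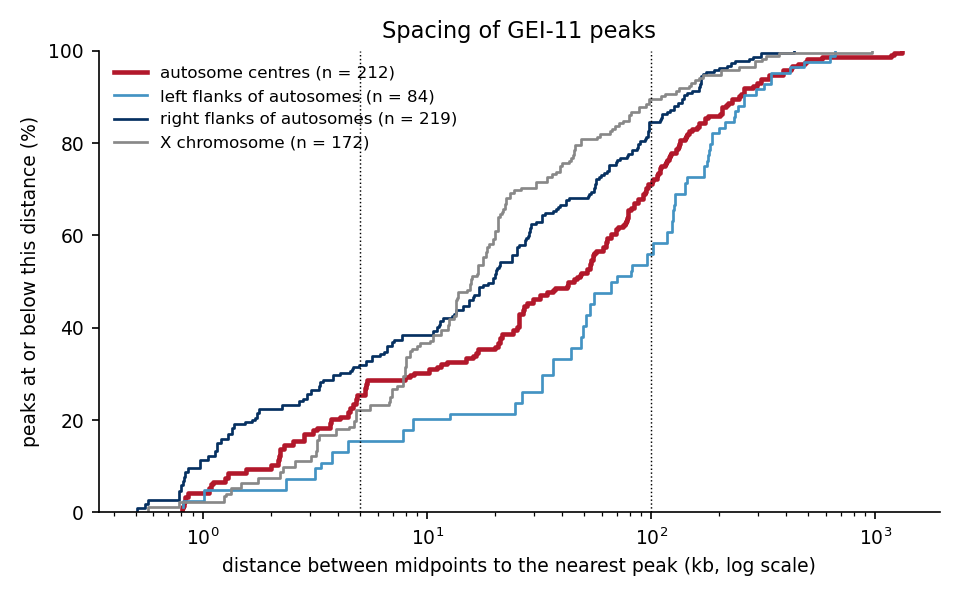
Cumulative share of peaks (vertical axis, percent) by distance to the nearest peak midpoint (horizontal axis, kb, log scale) for the autosome centres (thick red line, n = 212), the left and right flanks of the autosomes and the X chromosome; dotted lines mark 5 and 100 kb. The line of the centres runs between those of the left and the right flanks over most of the range, with 25.5% of its peaks within 5 kb and 28.8% beyond 100 kb.

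Solitary peaks made up 61 of the 212 members. No other midpoint lay within 100 kb of them, a share of 28.8% (95% interval 22.8 to 35.4%), against 21.8% of the whole list, 44.0% of the left flanks and 15.5% of the right flanks. For 30 members the nearest peak was over 200 kb away and for 4 over 500 kb. The most solitary one, at IV, 10821403 to 10822226, was 1308 kb from its neighbour. It was wide but weak, at 824 bp with a q of 0.00316. The next were both on I, at 6847162 to 6847531 (1208 kb away, 370 bp, q = 3.67e-16) and 5639154 to 5639540 (1172 kb away, 387 bp, q = 1.33e-22). They were followed by II, 9787463 to 9788071 (576 kb, q = 1.23e-29) and V, 13162929 to 13163233 (496 kb, q = 1.97e-10). Of these 5, 3 were strong, and the last missed the threshold narrowly.

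Close peaks made up 54 members, which had another midpoint within 5 kb. That is 25.5% (95% interval 19.8 to 31.9%), the same to 3 digits as the 25.5% of the whole list, with 15.5% in the left flanks and 32.0% in the right flanks. By autosome the share ran from 11.4% of the members on II to 32.7% on IV. The other 97 members (45.8%) lay between 5 and 100 kb from their nearest peak.

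The 54 close peaks formed 23 groups, each a chain of midpoints at most 5 kb apart, and every partner was itself central. There were 17 pairs, 4 groups of 3 and 2 groups of 4, with 8 groups on V, 7 on IV, 4 on III and 2 each on II and I. The median extent of a group from its first to its last base was 3468 bp, with a range from 1202 to 11690 bp.

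The usual group was 1 strong peak with a weaker one beside it, as in 13 of the 17 pairs. Of the 23 groups, 16 had exactly 1 strong peak, 3 had more and 4 had none. The strongest peak of a group had a median −log10 q of 55.9 and the second strongest one of 4.84. The order of these 2 values is fixed by the sorting, and the median of all members was 4.40. Of the 31 peaks that were not the strongest of their group, 18 had a q over 1e-5 and 5 were strong. Of all 212 members, 119 (56.1%) had a q over 1e-5 and 67 (31.6%) were strong. The strongest peak was also the widest in 17 of the 23 groups. This was not particular to the centres, with 26 of 35 groups in the outer parts and 12 of 17 on X. In the central groups the median width was 484 bp for the strongest peaks and 345 bp for the others. These 31 lay a median of 2.28 kb from the strongest midpoint, 19 on the side of lower coordinates and 12 on the side of higher ones.

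Examples from IV and V show the contrast within a group. Beside the peak at V, 8500284 to 8500873 (−log10 q of 149), the partner 4.41 kb away had a −log10 q of 3.45. Beside the peak at IV, 9510719 to 9512087 (146), the partner 2.16 kb away had one of 6.69. In the pair at IV, 9440617 to 9445106, the values were 134 and 4.84 although the widths were almost equal, 819 and 812 bp.

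**Figure D3:**
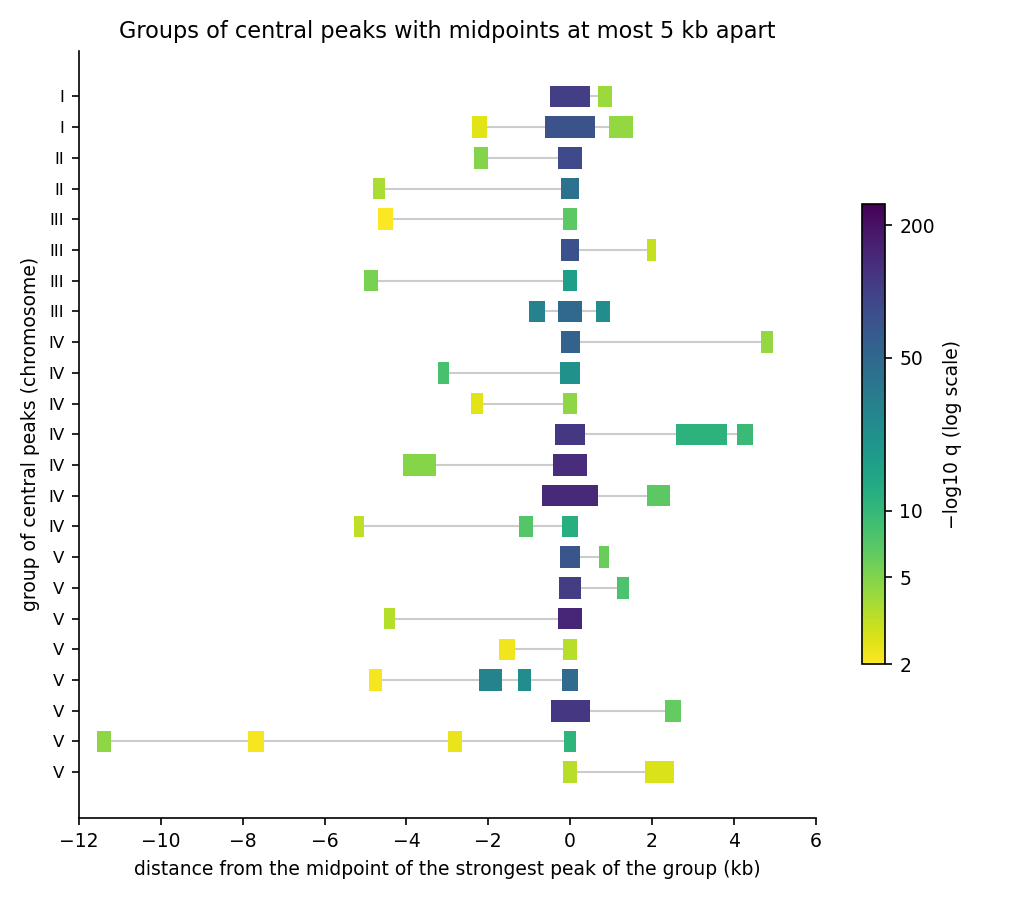
The 23 groups of central peaks, 1 per line with its chromosome, drawn as bars of true width at their distance in kb from the midpoint of the strongest peak of the group (horizontal axis); colour gives −log10 q on a log scale. Most lines show 1 dark bar at 0 with paler bars to 1 side; 1 line each of III and V has 3 dark bars.

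Groups of several strong peaks were few. On III, 3 strong peaks lay side by side between 7140375 and 7142359, with q-values of 6.74e-30, 1.67e-50 and 2.51e-24 and midpoints 812 and 803 bp apart, the shortest distances in the centres. On V, the 4 peaks between 11171967 and 11177075 had q-values of 0.00759, 9.47e-30, 2.19e-24 and 1.68e-48. On IV, between 8428320 and 8433160, a peak at 3.92e-116 was followed by one of 1259 bp at 4.98e-12 and one of 396 bp at 2.75e-10. The remaining groups of 3 or more each had 1 strong peak. They were I, 10562534 to 10566469 (strongest q 3.24e-75), IV, 12781864 to 12787332 (1.57e-12) and V, 14347258 to 14358947 (1.22e-11). The last was the longest group, with 4 peaks of which the other 3 had q-values from 2.86e-05 to 0.007.

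The closest pairs were separated by short gaps. Besides those on III, with gaps of 322 and 339 bp, they were V, 5586979 to 5588180 (midpoints 824 bp apart, gap 447 bp), V, 11174653 to 11175926 (827 bp, gap 379 bp) and I, 10516761 to 10518275 (859 bp, gap 203 bp). When peaks less than 1 kb apart were joined, 202 central peaks remained and the share with a neighbour within 5 kb was 19.8%. The distance at which the caller itself joins regions is not given in the sources used here.

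Groups outside the centres were led by weaker peaks. In the outer parts of the autosomes there were 35 groups, of which 12 held a strong peak (34.3%, 95% interval 19.1 to 52.2%), against 19 of the 23 central groups (82.6%, 61.2 to 95.05%), and these intervals do not overlap. Their strongest peaks had a median −log10 q of 6.18. On X, 3 of 17 groups held a strong peak (17.6%, 3.80 to 43.4%). Strong peaks also made up a higher share of the peaks in the centres as a whole, and the part of that in the difference between groups was not tested.

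Seen from the weaker peaks, 19 of the 145 central ones lay within 5 kb of a strong peak (13.1%, 95% interval 8.08 to 19.7%). In the outer parts this was 12 of 255 (4.71%, 2.45 to 8.08%). Among strong peaks the shares within 5 kb were close, though they rest on few peaks. Another strong peak lay within 5 kb of 8 of 67 central ones (11.9%, 5.30 to 22.2%) and 6 of 48 outer ones (12.5%, 4.73 to 25.2%). The centres also held a higher share of strong peaks, and its part in the difference for weaker peaks was not tested. The other weaker central peaks were farther from any strong one, and the median distance of all 145 to the nearest strong peak was 131.9 kb. In the outer parts that distance was 285.1 kb. From a strong peak to the nearest other strong one the median was 101.9 kb in the centres and 166.3 kb in the outer parts. Within 100 kb of another strong peak lay 32 of 67 central strong ones (47.8%, 35.4 to 60.3%). In the outer parts 13 of 48 did (27.1%, 15.3 to 41.8%). These intervals overlap, and the difference was not tested.

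Strong peaks were found at every distance from the nearest neighbour. The strong share was 44.4% among central peaks within 5 kb of another (24 of 54, 95% interval 30.9 to 58.6%). It was 40.9% of 22 at 5 to 20 kb, 35.3% of 34 at 20 to 50 kb and 17.1% of 41 at 50 to 100 kb. Among the solitary 61 it was 24.6% (14.5 to 37.3%), above the class before it. The intervals of the first and the last class overlap. In the outer parts the corresponding shares ran from 8.16 to 20.8%, with 18.1% of 83 close peaks and 18.3% of 71 solitary ones strong.

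Of the 67 strong central peaks, 24 were close to another peak, 28 were at an intermediate distance and 15 were solitary. The solitary ones included 2 of the leading peaks, I, 4171891 to 4172652, 203 kb from its neighbour, and II, 5844526 to 5845183, 118 kb from its own.

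Central peaks had a median width of 353.5 bp (95% interval 341 to 384 bp), quartiles of 289 and 515 bp and a range from 124 to 1580 bp. The outer parts had a median of 309 bp (290 to 334 bp) and a range from 2 to 3606 bp, so the shortest and the widest autosomal peaks both lay outside the centres. No member was shorter than 100 bp, against 7 outer peaks. The medians of the centres ran from 338 bp on IV to 387 bp on I, with overlapping intervals. The central median was above the outer one on I, II, IV and V, but on III it was 345 bp against 368 bp.

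Width went with strength, but not for all peaks. The 67 strong peaks had a median width of 511 bp (95% interval 448 to 575 bp), and the 145 others one of 320 bp (299 to 337 bp). Of the 62 members up to 300 bp wide, 1 was strong, whereas 34 of the 56 members over 500 bp were. The numbers in the outer parts were 2 of 143 and 23 of 52. Across the 212 members Spearman's rho between width and −log10 q was 0.53, and Pearson's r on log scales 0.54. The outer parts had almost the same rho, 0.54, with an r of 0.49 (n = 303). Among the strong peaks alone rho was 0.72 (n = 67) and among the others 0.15 (n = 145). The points share 1 peak caller, whose q-value itself depends on width, and rho is given as a description.

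**Figure D4:**
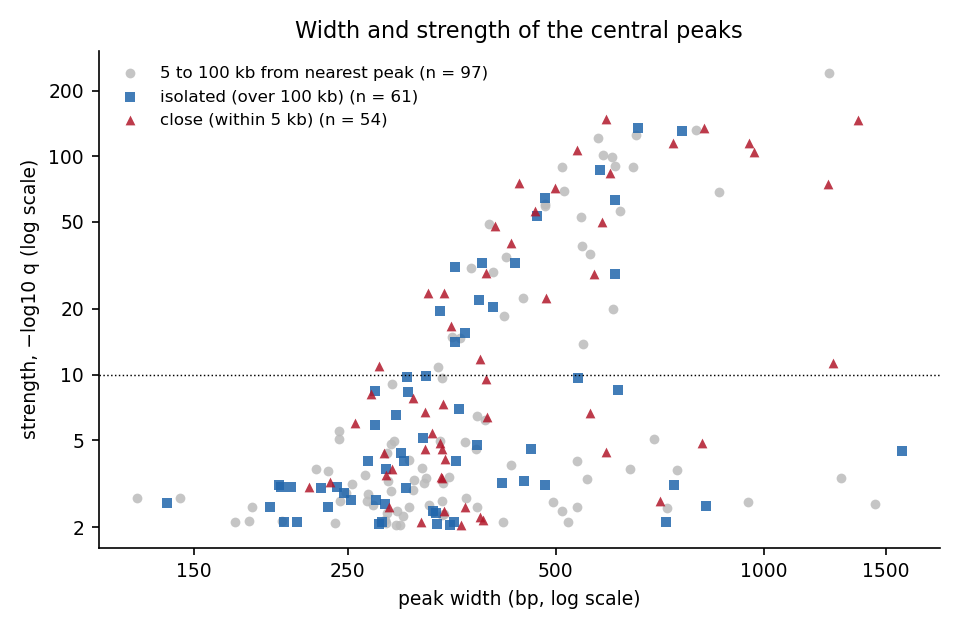
Width (horizontal axis, bp, log scale) and strength (vertical axis, −log10 q, log scale) of the 212 central peaks, by distance to the nearest peak; the dotted line marks a q of 1e-10. Above the line the wider peaks tend to be the stronger ones (rho 0.72), while below it are 22 peaks wider than 500 bp; all spacing classes occur on both sides of the line.

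Some wide peaks were weak, in the centres as elsewhere. There were 22 members over 500 bp that were not strong, 39.3% of those over 500 bp, against 29 of 52 (55.8%) in the outer parts. Of the 22, 18 had a q over 1e-5. Among the 22, 6 were solitary and 4 close to another peak, while of all members 28.8% were solitary and 25.5% close. The widest of all members was one of the 22, at V, 5284033 to 5285612 (1580 bp, q = 3.54e-05, 220 kb from its neighbour). It was followed by V, 9343085 to 9344531 (1447 bp, q = 0.00278). Next came the strong peak of 1369 bp on IV described above, then I, 8760866 to 8762156 (1291 bp, q = 0.000423) and the 1259 bp peak of the group on IV. Of the 7 members over 1000 bp, 4 were strong.

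The narrowest members were all weak. They lay at II, 5962509 to 5962632 (124 bp, q = 0.00196), II, 3911029 to 3911165 (137 bp, q = 0.00268), V, 14396312 to 14396454 (143 bp, q = 0.00196), V, 14277450 to 14277621 (172 bp, q = 0.00786) and I, 4375441 to 4375620 (180 bp, q = 0.00751). None of the 5 had another peak within 5 kb, but most members had none either. Of all members 25.5% had one, and of the 62 up to 300 bp wide 9 had.

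Median width was 389 bp for close peaks (95% interval 344 to 442 bp) and 337 bp for solitary ones (302 to 370 bp), and the intervals overlap. Without chromosome IV the difference of 52 bp became 16.5 bp.

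The centre of IV contains the left domain of piRNA genes, taken as 4.5 to 7 Mb. Its right domain lies outside the centre. The left domain held 23 members, 9.20 per Mb, and the rest of this centre held 26, 4.23 per Mb. No interval was computed for these 2 densities and their difference was not tested. The rest includes the stretch of 1309142 bp without a peak. Crowding also occurred away from IV, as the ninth piece of the centre of V held 15 peaks in 1.04 Mb. That piece was picked as the fullest of all and is shorter than the domain, so the 2 are not a like comparison. In the domain 6 of 23 peaks were close to another and the median distance was 45.2 kb (95% interval 16.1 to 114.7 kb), against 10 of 26 and 25.7 kb (3.68 to 84.1 kb) in the rest. Peaks in the domain were 225 to 484 bp wide, with a median of 328 bp, while those in the rest were 182 to 1369 bp wide, with a median of 366.5 bp. In each set 7 peaks were strong. The 3 strongest peaks of the centre of IV all lay outside the domain. The bounds are approximate and were used with earlier results of this list known.

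The limits of the centres did not cut through groups. The last member inside a limit lay 28.0 to 658.2 kb from it and the first peak outside 53.5 to 473.5 kb from it. On IV, the members just inside were 4347449 to 4347995 (q = 1.43e-14) and 12869921 to 12870102 (q = 0.00336), with 4266048 to 4266256 (q = 0.00334) and 13013795 to 13014034 (q = 0.000606) just outside. On I the first member inside on the left was the strong peak at 4171891, and the peak outside it, at 3293257 to 3293578, had a q of 0.000269. Among the 10 peaks just inside a limit 4 were strong, and among the 10 just outside none was. Of all members 31.6% were strong, and of all outer peaks 15.8%. With 10 peaks on each side, these counts are too few to show a change at the limits.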

How the data were processed

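A single list of peaks, combined over 2 ChIP and 2 input samples, was deposited by the authors, with the first and last base and a q-value of each peak. Per the file headers, positions are on WormBase WS180, and the source column names PeakSeq as the peak caller, a program that compares ChIP with control reads. The sources used here give neither its version nor the aligner, the filters, the q threshold or how replicates were joined. No read numbers are given, so depth is unknown. Replicates carry separate extraction labels; the list holds no value per sample, so nothing was tested.

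A peak was placed by its midpoint, rounded down, and distances are between midpoints on the same chromosome. Shares have exact Clopper-Pearson 95% intervals, medians order-statistic binomial intervals and densities exact Poisson intervals. Peaks named singly are the 3 strongest per centre, groups of 3 or more, the 5 widest, narrowest, most solitary and closest, and those at the limits. Analyses used Python 3.11.15, NumPy 2.4.6, pandas 2.3.3, SciPy 1.17.1 and Matplotlib 3.10.9, and the distance and grouping functions were checked on simulated data. The members, thresholds and lists were chosen with earlier results of these data known.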

Additional observations from a re-analysis of the deposited data

How the results depend on the processing

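No paired analysis was possible because the list has no value per sample, and leaving out a replicate was not possible either. Over 14 results, 145 of 169 alternatives stayed within the main 95% interval. For the number of members the range was a factor of 1.5, and for rho an approximate interval. Leaving out peaks shorter than 100 bp removed no member. It changed only the central share of autosomal peaks, from 41.2% to 41.7%. The other values under it equalled the main ones and are no check, although they count among the 145.

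The 24 alternatives outside the main interval came from other limits, other thresholds, the omission of chromosome V or the 343 peaks with the lowest q. Why each value moved was not tested. With other limits, the centres held 23.9% of autosomal peaks (123 members) in the middle 33.3% of the span, 30.9% in the middle 40% and 51.1% in the middle 60%; in the middle 33.3% of the span 35.8% were solitary. The share with a neighbour was 4.25% within 1 kb and 35.8% within 20 kb, and 48.1% of members were solitary by over 50 kb and 14.2% by over 200 kb. At a q of 1e-05 or less were 43.9% of members, 41.0% of solitary and 61.1% of close ones. Without chromosome V, the centres held 36.1% of autosomal peaks. Among the 343 peaks with the lowest q, 125 were central (46.1% of autosomal peaks, 3.04 per Mb); 39.2% were solitary, the median width was 400 bp (383 bp for solitary peaks), the median −log10 q 13.8, and 53.6% were strong (46.9% of solitary and 59.5% of close ones), with a rho of 0.63.

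The strong share was higher in the centres than in the outer parts under each of the 12 alternatives where both were computed, and the median width and the median −log10 q under each of the 10 that bear on them. The median distance to the nearest peak, 43.9 kb against 27.6 kb, turned to 32.0 kb against 44.5 kb among the 343 peaks. The share of solitary peaks, 28.8% against 23.4%, turned to 26.6% against 27.6% without II and to 28.8% against 30.3% without IV. The share of close peaks, 25.5% against 27.4%, turned to 19.8% against 16.4% after joining of peaks less than 1 kb apart, to 29.6% against 17.1% among the 343 and to 28.2% against 23.2% without II. The cause of these turns was not tested. Depth is unknown, and binding weaker than the deposited threshold cannot be assessed.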
